A study of Mus musculus with 50 samples.

Results

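The genes described here are 35 interferon-stimulated genes of the mouse, chosen by name as genes known to be transcribed in response to interferons. The choice was made with earlier results of these data known, so shares of all genes set beside them are a description. All 35 were found by symbol among the 52636 genes of the deposited tables, where each matched 1 Ensembl ID. They were followed in thyroid glands of male C57BL/6 mice that had received a single dose of antibodies that block Notch receptors or their Jagged ligands. RNA of 50 thyroid samples, in 10 groups of 5, was sequenced as single-end reads of 50 bases. The labels do not say that the samples of a group came from separate mice, so p-values measure only the spread between these samples, which may be technical. The control antibody, RW, binds ragweed and was given at 40 mg/kg. Antibodies against the ligands Jag1 and Jag2, together aJ1aJ2, were each dosed at 20 mg/kg. Those against the receptors Notch1 and Notch2, together aN1aN2, were dosed at 5 and 10 mg/kg, and aN1aN2aN3 added an antibody against Notch3 at 20 mg/kg. RW, aJ1aJ2 and aN1aN2 were collected at 15 hours and at 5 days. At 7 days RW and aJ1aJ2 formed a first set, and aJ1aJ2 and aN1aN2aN3 a second set with sample IDs of its own and no RW library analysed here. The labels name no genetic change in these mice, and their age is given as 10 to 12 weeks in the series text and as 10 to 14 weeks in the sample labels. Thyroid hormone injections that the series text also describes are assigned to no library by the labels.

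Type I interferons are secreted proteins that bind a receptor present on nearly all cells. The receptor's kinases set off the assembly of a complex with STAT2 and IRF9 that binds the interferon-stimulated response element, a short DNA sequence near the start of its target genes. The targets include sensors of foreign RNA, enzymes and binding proteins that block viral replication, and regulators such as IRF7 and USP18 that amplify or end the response. Interferon gamma acts through a receptor of its own, with a partly shared set of targets.

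The element's core, GAAANNGAAA (TTTCNNTTTC on the other strand), was searched on both strands in the 250 bases before the annotated start of each gene in a RefSeq promoter table of the GRCm38.p6 build. The table held a window for 26 of the 35 genes, and 12 of these 26 (46.2%) contained the core, against 936 of all 27025 genes in the table (3.46%). Among the members with a window, the core was found in 8 of the 15 (53.3%) that passed the test after aJ1aJ2 at 15 hours and in 4 of the 11 (36.4%) that did not. The stretches below, each of 100 bases upstream of the start and written 5′ to 3′ on the gene's own strand, are shown because they belong to 6 genes whose values are given in full further on. Capitals mark the matches to the core, which in Isg15, Bst2, Ifit1 and Ifit3 occur more than once or overlap.
Isg15, chr4:156200830-156200929, minus strand: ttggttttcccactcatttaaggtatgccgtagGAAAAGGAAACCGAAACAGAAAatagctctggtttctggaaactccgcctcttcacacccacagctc
Ifit1, chr19:34640759-34640858, plus strand: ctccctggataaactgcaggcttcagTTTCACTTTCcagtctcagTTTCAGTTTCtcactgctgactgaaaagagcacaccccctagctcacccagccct
Ifit3, chr19:34583362-34583461, plus strand: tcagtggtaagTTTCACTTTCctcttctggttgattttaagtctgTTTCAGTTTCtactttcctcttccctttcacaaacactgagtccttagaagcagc
Oas3, chr5:120777680-120777779, minus strand: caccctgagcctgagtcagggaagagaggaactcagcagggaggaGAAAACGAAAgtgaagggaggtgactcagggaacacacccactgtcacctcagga
Bst2, chr8:71537542-71537641, minus strand: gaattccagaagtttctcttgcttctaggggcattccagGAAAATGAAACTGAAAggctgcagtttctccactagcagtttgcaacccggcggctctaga
Trim30a, chr7:104465194-104465293, minus strand: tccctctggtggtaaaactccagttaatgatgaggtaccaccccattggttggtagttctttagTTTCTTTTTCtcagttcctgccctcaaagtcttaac
In Isg15 the 3 matches overlapped, with the one nearest the start beginning at base -66. The windows of Irf7, Oasl2 and Ifi44 held no match. A match is only a run of letters, and no binding was measured.

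Depth ranged from 15271242 to 52835846 counts per library. Thyroglobulin (Tg), the thyrocyte's hormone precursor, took 0.450% to 42.4% of the counts. RW replicate 3 at 5 days had the lowest Tg share and the highest share of 5 skeletal muscle genes (9.70%), and aJ1aJ2 replicate 3 at 5 days also stood apart (Tg 2.39%, muscle 6.72%). The second 7-day set had Tg shares of 1.15% to 6.50%. FPKM values had been scaled within 2 sets of libraries, the first with both 7-day sets and RW and aJ1aJ2 at 15 hours (30 libraries), the second with aN1aN2 at 15 hours and all 5-day groups (20 libraries). Sample IDs of these 20 libraries form a series of their own. The comparison of aN1aN2 with RW at 15 hours therefore crosses the 2 sets, and antibody and set cannot be told apart in it.

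At 15 hours most of the interferon-stimulated genes were higher after either antibody pair than in RW. After aJ1aJ2, 22 of the 35 were higher than in RW and 0 lower by edgeR's quasi-likelihood test (adjusted p below 0.05 over all 18513 genes tested), against 0.346% of all genes called higher. The median log2 fold change of the 35 was 1.35 (2.55-fold), against -0.03 for all genes, and each of the 35 values was above 0, as were 43.9% of all. After aN1aN2, 20 were higher and 0 lower, against 0.880% of all genes called higher. The median was 1.11 (2.16-fold), against 0.01 for all genes, and again every value was above 0 (51.3% of all genes). In whole-gland RNA, a larger number of responding cells and more RNA per cell cannot be told apart.

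**Figure D1:**
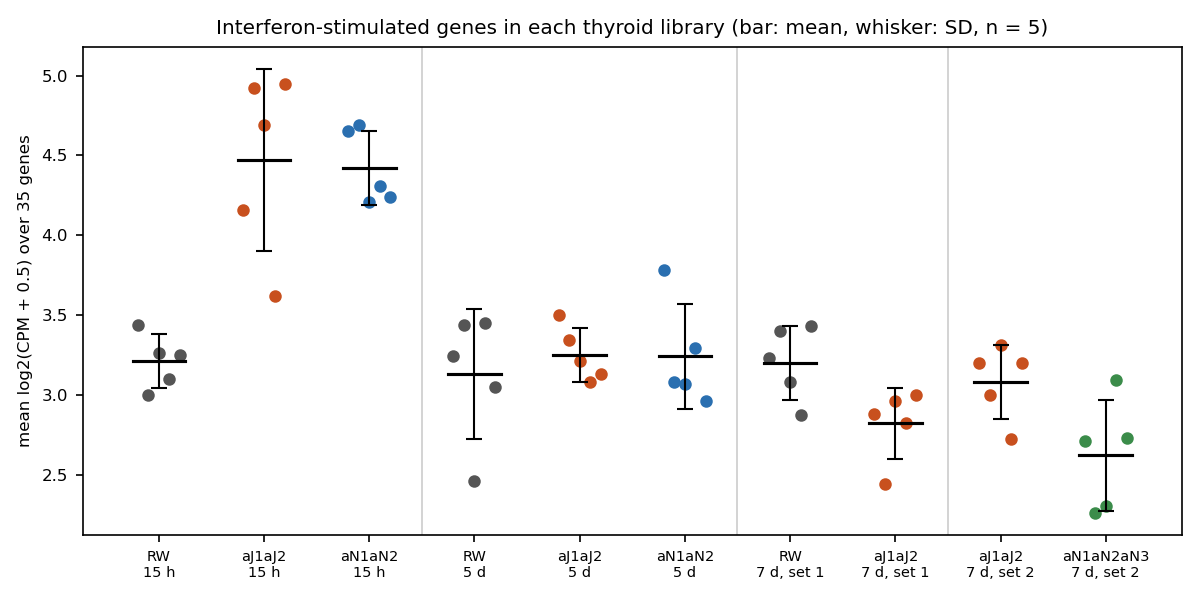
Mean log2(CPM + 0.5) of the 35 interferon-stimulated genes in each library (points), by group, with group mean (bar) and SD (whisker). All libraries of both antibody pairs at 15 hours lie above the RW libraries of that time (3.00 to 3.44), whereas the groups overlap at 5 days.

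The mean of log2(CPM + 0.5) over the 35 genes, where CPM is the read count scaled to a common library size, shows the shift in single libraries. It was 3.44, 3.00, 3.26, 3.10 and 3.25 in the RW libraries, 4.16, 4.92, 4.69, 3.62 and 4.95 after aJ1aJ2, and 4.65, 4.69, 4.21, 4.31 and 4.24 after aN1aN2. The groups did not overlap, but the aJ1aJ2 libraries spread over a wider range (SD 0.57) than the aN1aN2 libraries (SD 0.23). Replicate 4 of aJ1aJ2 had the lowest level of its group for 33 of the 35 genes. Without it, 27 genes passed the threshold.

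Genes with separate groups were also counted. After aJ1aJ2, 20 genes had every library above every RW library, which 0.956% of all genes did. After aN1aN2, 29 genes did, against 2.67% of all genes. Both counts of called genes depend on single libraries. Leaving out RW replicate 2 or 4 left 9 genes for aJ1aJ2, and leaving out RW replicate 3 or aJ1aJ2 replicate 2, 3 or 5 left 14. For aN1aN2 there were 11, 12 and 9 genes with those RW replicates (2, 3 and 4) left out, and 13 with aN1aN2 replicate 1 or 2 left out. Limma-voom called 10 genes after aJ1aJ2, and a fit on the 10 libraries of that contrast alone called 5. Of the 22 genes called after aJ1aJ2, 9 were called whichever library was left out (Isg15, Irf7, Dhx58, Ifit1, Ifit3, Oas2, Oas3, Oasl2 and Ifi44), and so were 9 of the 20 called after aN1aN2 (Isg15, Usp18, Irf7, Dhx58, Ifit1, Oas2, Oas3, Oasl2 and Rtp4).

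**Figure D2:**
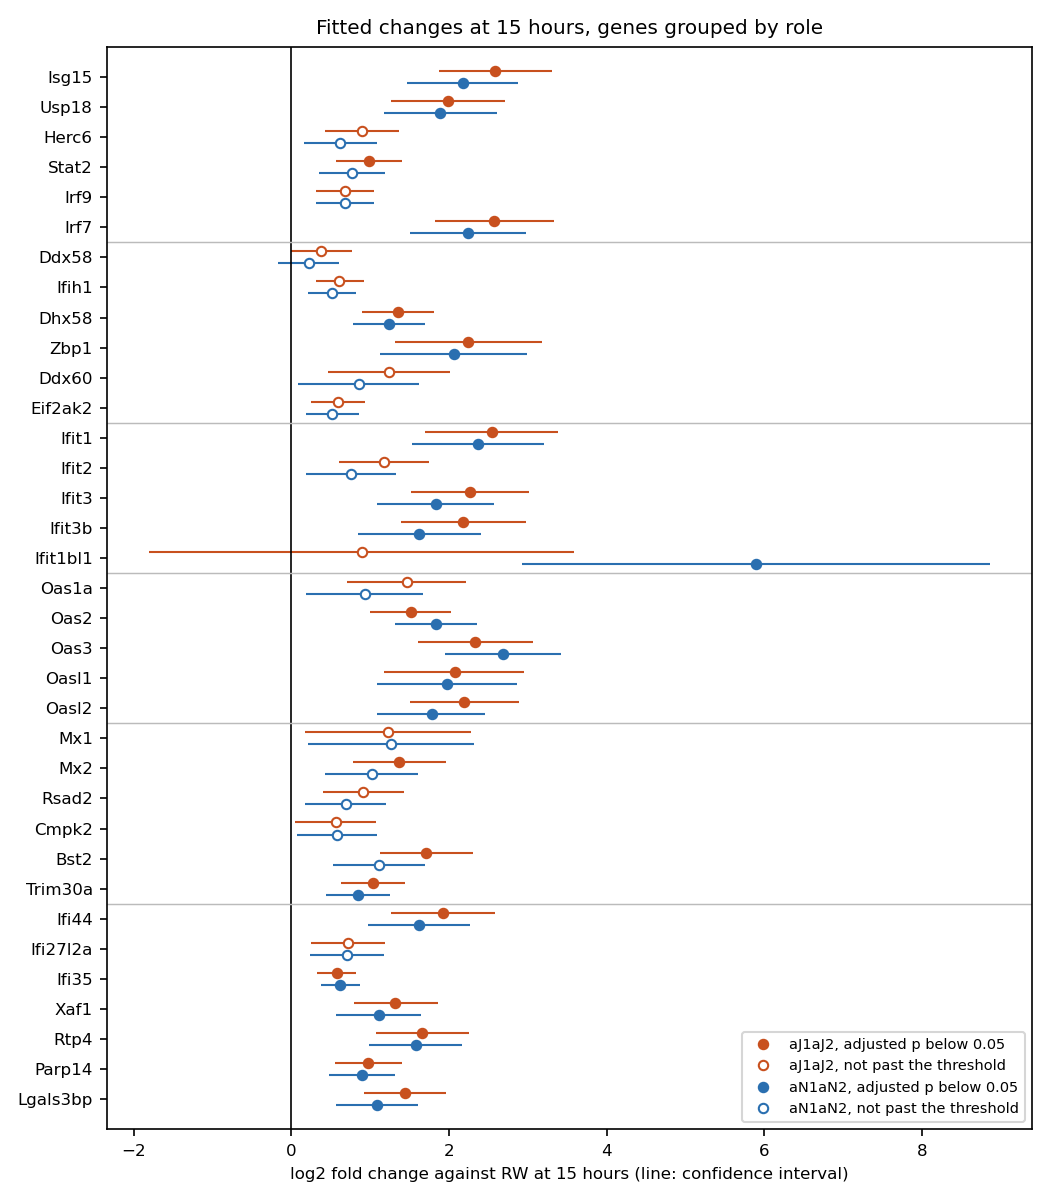
Fitted log2 fold changes against RW at 15 hours for each of the 35 genes after aJ1aJ2 (orange) and aN1aN2 (blue), with 95% intervals, grouped by role. Filled points passed the threshold (22 and 20 genes), and all points lie above 0.

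Of 6 genes for protein tagging and interferon transcription, 4 passed after aJ1aJ2 (Isg15, Usp18, Irf7 and Stat2) and 3 after aN1aN2 (the same without Stat2). Isg15 (ENSMUSG00000035692) encodes a ubiquitin-like protein that is joined to other proteins during the response. Its level was 4.43, 1.89, 4.02, 2.38 and 3.46 CPM in the RW libraries, 13.5, 22.9, 21.2, 8.39 and 31.2 CPM after aJ1aJ2 and 16.1, 18.3, 10.8, 13.0 and 15.3 CPM after aN1aN2. Every antibody library exceeded every RW library. The log2 fold change was 2.58 (SE 0.33, edgeR adjusted p = 0.00683) for aJ1aJ2 and 2.18 (SE 0.33, edgeR adjusted p = 0.00402) for aN1aN2.

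Irf7 (ENSMUSG00000025498), the transcription factor that amplifies interferon production, was measured at 11.5, 8.12, 9.83, 9.13 and 9.81 CPM in RW. It reached 34.2, 82.8, 50.0, 19.4 and 102 CPM after aJ1aJ2 and 49.7, 54.3, 46.9, 40.4 and 38.2 CPM after aN1aN2, again without overlap. The RW libraries lay close together, and among the aJ1aJ2 libraries replicates 2 and 5 were high and replicate 4 low. The log2 fold change was 2.57 (SE 0.35, edgeR adjusted p = 0.00683) and 2.24 (SE 0.35, edgeR adjusted p = 0.00463), respectively. Irf7 shares 45 exon bases with Phrf1, a gene on the opposite strand, so a small share of its reads is uncertain. Usp18, the protease that removes ISG15 and restrains the receptor, rose by 1.99 and 1.89 log2 units, the former lost without RW replicate 2 or 4. Stat2 rose by 0.98 after aJ1aJ2 (edgeR adjusted p = 0.0388), a call lost when any 1 of 11 of the 15 libraries of that time was left out, and stood at 0.77 after aN1aN2 (edgeR adjusted p = 0.0652). Irf9 (0.68 after each antibody pair) and Herc6, the mouse ligase that attaches ISG15 (0.89 and 0.62), did not pass.

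Among 6 RNA sensing genes, Dhx58 and Zbp1 passed after both pairs, and the other 4 (Ddx58, Ifih1, Ddx60 and Eif2ak2) passed after neither, with log2 fold changes of 0.38 to 1.24 after aJ1aJ2 and 0.22 to 0.86 after aN1aN2. Ddx58 and Ifih1 encode the cytoplasmic sensors RIG-I and MDA5, and Eif2ak2 encodes the kinase PKR, which halts translation on binding double-stranded RNA. Dhx58 (ENSMUSG00000017830), which encodes the related helicase LGP2, was at 4.56, 3.86, 3.98, 3.16 and 3.95 CPM in RW. After aJ1aJ2 its libraries held 6.95, 12.9, 10.8, 5.96 and 13.1 CPM and after aN1aN2 10.0, 10.9, 7.47, 8.95 and 8.87 CPM, all above the RW libraries. The changes were 1.35 (SE 0.21, edgeR adjusted p = 0.0108) and 1.24 (SE 0.21, edgeR adjusted p = 0.00974).

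Zbp1 (ENSMUSG00000027514) encodes a sensor of Z-form nucleic acid that can start cell death. Its RW libraries lay at 3.00, 2.06, 2.61, 1.05 and 2.15 CPM, those of aJ1aJ2 at 5.79, 13.3, 13.3, 2.56 and 16.5 CPM and those of aN1aN2 at 9.77, 13.3, 6.72, 7.50 and 8.09 CPM. Here aJ1aJ2 replicate 4 fell inside the RW range, while all aN1aN2 libraries were above it. The log2 fold change was 2.24 (SE 0.44, edgeR adjusted p = 0.0332) and 2.06 (SE 0.43, edgeR adjusted p = 0.0283). RW replicates 2 to 5 and aJ1aJ2 replicates 2, 3 and 5 were each needed for the aJ1aJ2 call to pass, and the same RW replicates and aN1aN2 replicates 1 and 2 for the aN1aN2 call.

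The Ifit family encodes proteins that bind viral RNA lacking the host's cap. After aJ1aJ2, 3 of its 5 members passed (Ifit1, Ifit3 and Ifit3b), with a family median of 2.18. After aN1aN2, 4 passed, with a median of 1.83. Ifit1 (ENSMUSG00000034459), which carries 2 matches to the core in the stretch above, was at 5.01, 3.91, 5.14, 3.93 and 6.91 CPM in RW, 17.4, 33.3, 48.9, 8.10 and 36.9 CPM after aJ1aJ2 and 28.0, 36.5, 20.4, 19.3 and 24.4 CPM after aN1aN2. No antibody library reached down to the RW libraries. The log2 fold changes were 2.54 (SE 0.39, edgeR adjusted p = 0.00952) and 2.37 (SE 0.39, edgeR adjusted p = 0.00719).

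Ifit3 (ENSMUSG00000074896) stood at 11.3, 5.66, 7.75, 6.39 and 6.98 CPM in RW, 24.9, 50.8, 46.0, 10.8 and 51.3 CPM after aJ1aJ2 and 31.6, 29.9, 22.6, 24.9 and 26.5 CPM after aN1aN2. Replicate 4 of aJ1aJ2, at 10.8 CPM, lay below the highest RW library. The changes were 2.27 (SE 0.35, edgeR adjusted p = 0.00952) and 1.83 (SE 0.35, edgeR adjusted p = 0.0173), the latter lost without RW replicate 2 or 4. Ifit3 shares 51.2% of its 50-base stretches with Ifit3b, and Ifit3b 45.0% of its own with other transcripts, so the 2 genes' counts are uncertain between them. Ifit2 did not pass (1.17 and 0.76).

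Ifit1bl1 was high in 1 library. It was at 0.367, 0.307, 0.176, 0.111 and 0.388 CPM in RW, 0.714, 0.492, 0.825, 0.0702 and 0.426 CPM after aJ1aJ2 and 4.12, 74.2, 0.944, 0.725 and 0.903 CPM after aN1aN2. The fitted change after aN1aN2, 5.89 (SE 1.38, edgeR adjusted p = 0.0486), is the largest of the 35, and replicate 2 stood far above the other 4 libraries. The call was lost when any 1 of 12 of the 15 libraries was left out, that one included. Replicate 2 also held the highest summed level of 5 neutrophil markers among the aN1aN2 libraries (96.4 CPM, against 1.93 to 6.29 CPM in the other 4). The part of those cells in the result was not tested.

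The Oas family makes the short oligoadenylates that activate the RNA-cutting enzyme RNase L, and includes Oas-like relatives. After each pair 4 of 5 members passed (Oas2, Oas3, Oasl1 and Oasl2), with family medians of 2.07 for aJ1aJ2 and 1.84 for aN1aN2. Oas3 (ENSMUSG00000032661) was low in RW, at 1.01, 0.395, 0.564, 0.498 and 0.670 CPM from 95 counts over the 5 libraries. It was at 2.78, 4.25, 2.20, 1.93 and 4.71 CPM after aJ1aJ2 and 4.62, 6.14, 2.98, 4.08 and 2.59 CPM after aN1aN2. The lowest antibody library was above the highest RW library in each case. The log2 fold change was 2.33 (SE 0.34, edgeR adjusted p = 0.00804) and 2.69 (SE 0.34, edgeR adjusted p = 0.00142). On log2(FPKM + 0.1), a scale that understates changes of low genes, the aJ1aJ2 value of Oas3 was 0.88, still past the threshold by limma.

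Oasl2 (ENSMUSG00000029561) was more abundant, at 13.8, 13.5, 14.0, 11.9 and 16.3 CPM in RW. Its libraries held 36.6, 76.0, 95.4, 22.8 and 87.0 CPM after aJ1aJ2 and 57.0, 59.4, 38.0, 41.3 and 43.1 CPM after aN1aN2, with no overlap. The changes were 2.19 (SE 0.32, edgeR adjusted p = 0.00847) and 1.78 (SE 0.32, edgeR adjusted p = 0.0124). Oas2 rose by 1.52 and 1.84, and Oasl1 by 2.07 and 1.98, where the Oasl1 calls were lost in 9 and 3 of the 15 fits that left out 1 library. Oas1a, which shares 57.6% of its 50-base stretches with other transcripts and is uncertain for that reason, did not pass (1.47 and 0.93).

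Among the Mx proteins and other antiviral effectors, 3 of 6 passed after aJ1aJ2 (Bst2, Trim30a and Mx2, the last lost in 10 of 15 fits that left out 1 library) and after aN1aN2 only Trim30a did. Bst2 (ENSMUSG00000046718), or tetherin, holds budding virus particles at the cell surface. It was at 24.0, 13.0, 17.8, 15.9 and 16.5 CPM in RW, 40.1, 67.1, 49.4, 28.5 and 100 CPM after aJ1aJ2 and 39.0, 31.6, 37.6, 40.4 and 39.8 CPM after aN1aN2. Both antibody groups lay above RW. The change was 1.71 (SE 0.28, edgeR adjusted p = 0.0116) after aJ1aJ2, lost without RW replicate 2 or 4, and 1.11 (SE 0.27, edgeR adjusted p = 0.0567) after aN1aN2.

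Trim30a (ENSMUSG00000030921), a mouse tripartite-motif protein, was at 12.3, 8.52, 10.8, 9.99 and 9.88 CPM in RW, 16.5, 27.9, 21.4, 13.4 and 26.4 CPM after aJ1aJ2 and 23.1, 19.3, 15.6, 17.8 and 17.0 CPM after aN1aN2. The groups were separate, though the smallest gap to RW was narrow. The changes were 1.04 (SE 0.19, edgeR adjusted p = 0.0257) and 0.85 (SE 0.19, edgeR adjusted p = 0.0380). Each of RW replicates 2 to 5 was needed for both calls, as were aJ1aJ2 replicates 2, 3 and 5 for the first and aN1aN2 replicates 1, 2, 4 and 5 for the second. Mx1 did not pass (1.22 and 1.27) and had 1 RW library, replicate 5, at 8.68 CPM against 1.54 to 2.42 CPM in the other 4. Rsad2, or viperin (0.91 and 0.69), and its neighbour Cmpk2, a mitochondrial nucleotide kinase (0.56 and 0.58), did not pass either.

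The last 7 genes are induced by interferon but have varied or less defined roles, and 6 of them passed after each pair (Ifi44, Ifi35, Xaf1, Rtp4, Parp14 and Lgals3bp). Ifi44 (ENSMUSG00000028037) was at 8.07, 4.17, 6.52, 6.75 and 6.10 CPM in RW, 16.6, 36.7, 19.2, 11.9 and 35.6 CPM after aJ1aJ2 and 27.2, 17.2, 16.6, 21.8 and 14.6 CPM after aN1aN2. All antibody libraries were above RW. The changes were 1.92 (SE 0.31, edgeR adjusted p = 0.0108) and 1.62 (SE 0.30, edgeR adjusted p = 0.0157), the latter lost without RW replicate 4.

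Rtp4 (ENSMUSG00000033355), a chaperone of membrane receptors, was at 9.84, 7.25, 8.67, 6.03 and 7.69 CPM in RW, 14.4, 30.9, 31.9, 11.8 and 35.5 CPM after aJ1aJ2 and 24.4, 25.2, 20.3, 21.2 and 27.5 CPM after aN1aN2, without overlap. Its changes were 1.66 (SE 0.28, edgeR adjusted p = 0.0144) and 1.58 (SE 0.28, edgeR adjusted p = 0.00989), the former lost without RW replicate 2 or 4 and at 0.96 on log2(FPKM + 0.1). Exons of a second gene on the same strand cover 13.9% of the exon bases of Rtp4, so its counts are partly uncertain, as are those of Ifi35 (16.8%, opposite strand). Lgals3bp, a secreted glycoprotein, rose by 1.44 and 1.08, calls lost in 2 and 9 of 15 such fits. Ifi27l2a, the member with the highest FPKM (a level scaled to gene length) in RW at 15 hours (52.6 ± 16.6, SD, n = 5), did not pass (0.72 and 0.71). On that scale Oas3 was lowest (0.0267 ± 0.0103, SD, n = 5), next to Ifit1bl1 (0.0309 ± 0.0138, SD, n = 5), from which it did not differ beyond the spread.

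**Figure D3:**
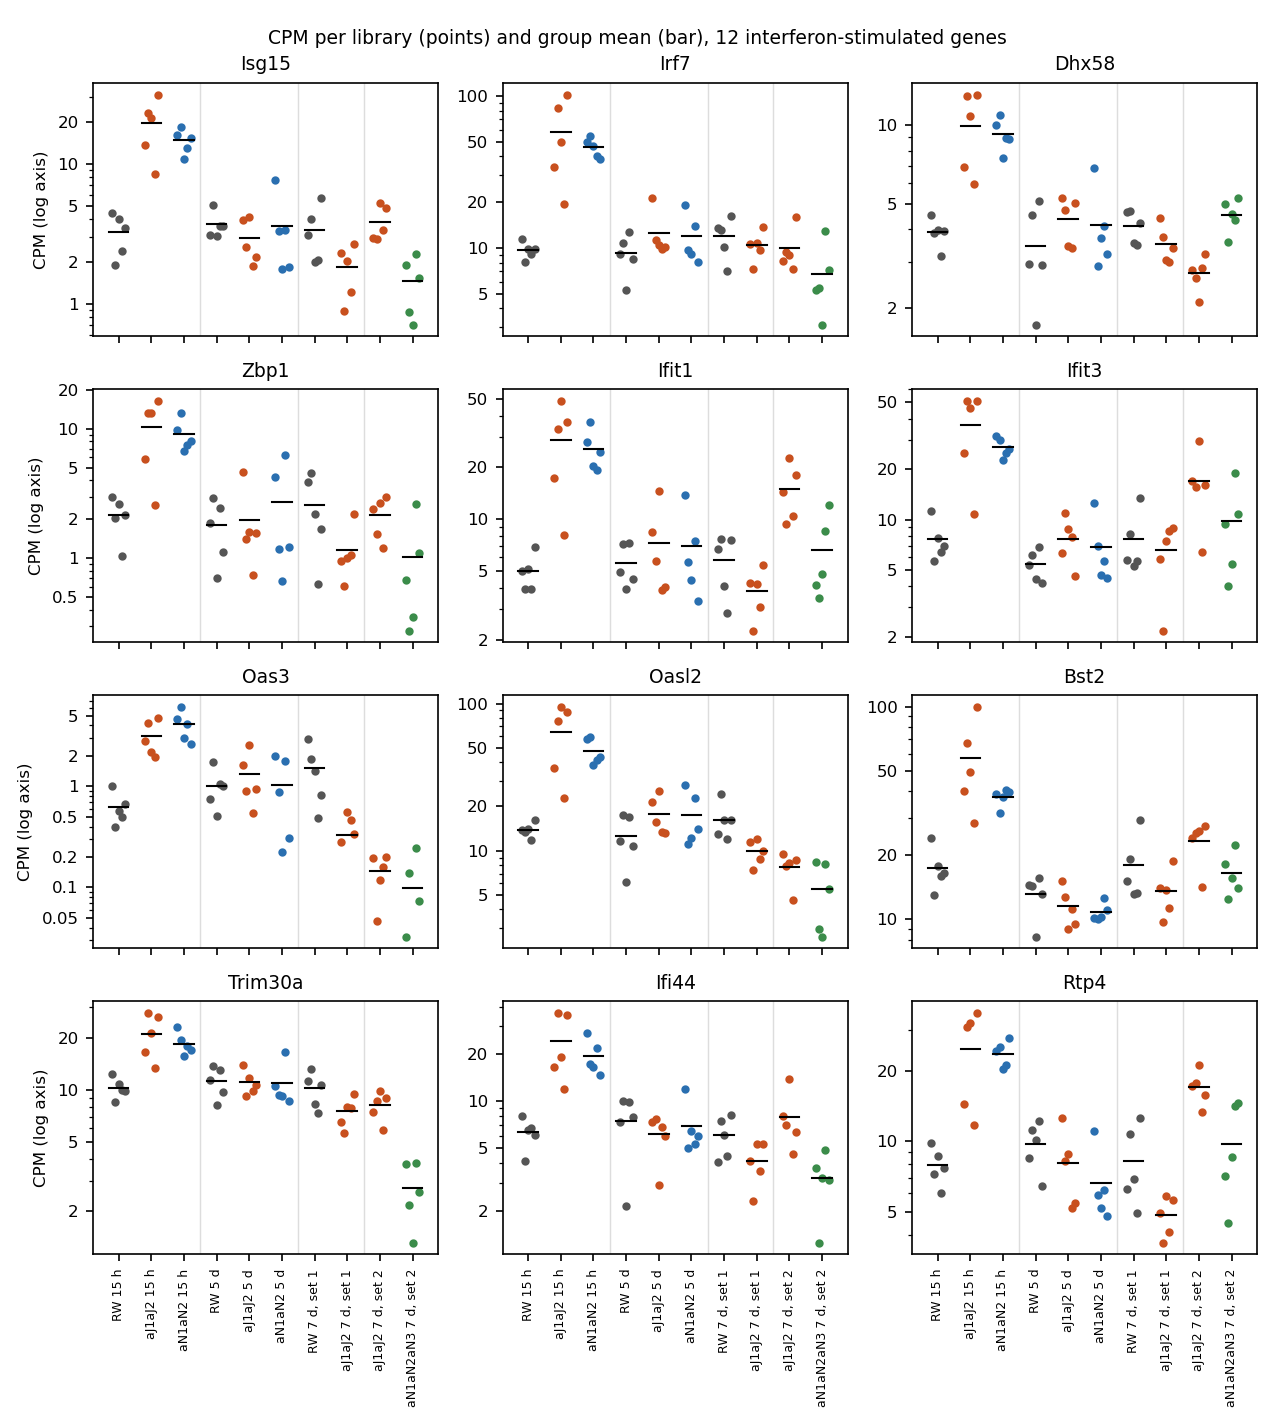
CPM of 12 interferon-stimulated genes, 2 for each role, in every library (points, log axis) with the group mean (bar), for all 10 groups. The means of the antibody groups at 15 hours stand above every RW mean and above those of the same antibodies at 5 and 7 days, and 2 Oas3 libraries with 0 counts at 7 days are not drawn.

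Both antibody pairs called 19 of the genes at 15 hours, which is 86.4% of the aJ1aJ2 calls and 95.0% of the aN1aN2 calls. They share their RW libraries, so this overlap is a description. Bst2, Mx2 and Stat2 passed only in the first comparison and Ifit1bl1 only in the second. Tested directly, aN1aN2 against aJ1aJ2 called 0 of the 35 by edgeR (1 higher and 1 lower at an unadjusted p below 0.05, against 7.10% and 5.43% of all genes, and 0 by DESeq2), against 0.130% of all genes called in either direction. The median difference was -0.18, with aJ1aJ2 higher for 29 genes. The log2 difference was -0.41 (95% interval -1.08 to 0.27) for Isg15, 0.36 (95% interval -0.32 to 1.04) for Oas3 and -0.60 (95% interval -1.18 to -0.02) for Bst2, and the smallest edgeR adjusted p among the 35 was 0.158. This contrast also crosses the 2 processing sets.

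Other genes of the pathway were examined in lists that did not enter the 35. Of 11 interferon genes, none passed the count filter, and all of them together had 75 counts over the 50 libraries, of which Ifng had 50 and Ifnb1 2. At 15 hours they had 3 counts in RW, 4 after aJ1aJ2 and 6 after aN1aN2. None of 6 interferon receptor genes was called at 15 hours, with log2 fold changes of -0.39 to 0.16 after aJ1aJ2 and -0.82 to 0.07 after aN1aN2. Genes for upstream sensing and induction (12) and negative regulators (6) had no call after either pair.

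Of 37 further interferon-stimulated genes tested, 9 were higher after aJ1aJ2 and 11 after aN1aN2, with 0 lower, and list medians of 0.66 and 0.65. Ms4a4c, a membrane protein of leukocytes, had the smallest p among them (2.70 after aJ1aJ2 and 2.37 after aN1aN2), and Ifitm3, which blocks virus entry, rose by 1.09 and 0.99. Among 19 targets preferred by interferon gamma, 7 were higher after aJ1aJ2 (median 1.39) and 5 after aN1aN2 (median 0.81), again with 0 lower. The GTPases Igtp (1.56 and 1.33), Tgtp1 (1.47 and 1.05) and Tgtp2 (1.83 and 1.52) were among them. Gbp5, with a smaller p than Igtp after aJ1aJ2, rose by 1.77 there. It was at 1.09 after aN1aN2 and was not called (edgeR adjusted p = 0.124). Tgtp1 and Tgtp2 are near-identical copies, between which reads are uncertain.

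Markers of other cells were read in the same libraries. None of 6 macrophage markers was called after either pair, and their summed level was 140 to 236 CPM in RW, 184 to 248 CPM after aJ1aJ2 and 178 to 255 CPM after aN1aN2. Their log2 fold changes ran from -0.22 to 1.02 after aJ1aJ2 and from 0.01 to 0.55 after aN1aN2. The closest to the threshold was Adgre1, at 1.02 (edgeR adjusted p = 0.0851) after aJ1aJ2. None of 4 monocyte markers was called, with summed levels of 22.4 to 34.9, 29.0 to 43.5 and 21.6 to 82.0 CPM. Their log2 fold changes were all above 0, at 0.11 to 2.03 after aJ1aJ2 and 0.04 to 3.21 after aN1aN2. Plac8 came closest to the threshold, at 1.29 (edgeR adjusted p = 0.0772) after aN1aN2. Neutrophil markers summed to 0.564 to 0.878 CPM in RW, 0.948 to 12.6 CPM after aJ1aJ2 and 1.93 to 96.4 CPM after aN1aN2, without overlap between RW and either pair. Of the 2 that could be tested, S100a9 was called after aN1aN2 (5.37, edgeR adjusted p = 0.0380) and none after aJ1aJ2. Siglech, a marker of plasmacytoid dendritic cells, a major source of type I interferon, was lower after aJ1aJ2 (-1.89, edgeR adjusted p = 0.0224) and was at -1.25 (edgeR adjusted p = 0.0728) after aN1aN2. It was at 1.23 to 2.15 CPM in RW, 0.125 to 0.632 CPM after aJ1aJ2 and 0.491 to 0.967 CPM after aN1aN2. The other 4 markers listed for these cells were not called. All 5 summed to 8.80 to 362 CPM in RW, 25.1 to 140 CPM after aJ1aJ2 and 16.9 to 241 CPM after aN1aN2, of which Cox6a2, also a respiratory subunit of skeletal muscle, held 5.67 to 357, 23.4 to 139 and 9.56 to 239 CPM. No defining marker of these lists was at 0 throughout a 15-hour group. None of the markers tested for thyrocytes (7), natural killer cells (1), T cells (5), B cells (1), skeletal muscle (5), brown adipocytes (2), parathyroid (2), C cells (2) or endothelium (3) was called after either pair. The part of these cells in the rise was not tested.

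By 5 days the rise was no longer detected. Of the 35 genes, 0 passed after aJ1aJ2 (2 higher, against 5.74% of all genes, and 0 lower at an unadjusted p below 0.05, and 0 by DESeq2), against 0.179% of all genes called in either direction. The median log2 fold change was 0.11, against -0.06 for all genes. After aN1aN2, 0 passed by edgeR (2 higher, against 5.65% of all genes, and 0 lower at an unadjusted p below 0.05), as did 0 of all genes (0%), and DESeq2 called Ifit1bl1 alone. The median was 0.05, against -0.07 for all genes. Isg15 was at 3.11, 5.09, 3.05, 3.60 and 3.58 CPM in RW, 3.96, 2.54, 4.15, 1.86 and 2.17 CPM after aJ1aJ2 and 7.62, 3.28, 1.78, 3.35 and 1.84 CPM after aN1aN2, and the groups overlapped. Its log2 fold change was -0.33 (95% interval -1.17 to 0.50) and -0.05 (95% interval -0.88 to 0.78). Irf7, the amplifying factor, was at 9.14, 10.8, 5.28, 12.8 and 8.47 CPM in RW, 21.2, 11.3, 10.4, 9.89 and 10.2 CPM after aJ1aJ2 and 19.0, 9.73, 9.14, 13.9 and 8.10 CPM after aN1aN2, also overlapping. Replicate 1 of aN1aN2 stood highest for 21 of the 35 genes in its group. Without aJ1aJ2 replicate 3, which held 808 CPM of summed neutrophil markers (2.33 to 5.14 CPM in the other 4), the aJ1aJ2 median was 0.08, and without RW replicate 3 it was -0.06, again with 0 genes called. None of the cell markers tested was called at 5 days after either pair.

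At 7 days, in the first set, most of the genes had lower values after aJ1aJ2 than in RW. Of 34 genes tested (Ifit1bl1 had too few counts), 31 had a value below 0, where 51.2% of all genes had one above it, and the median was -0.42, against 0.01 for all genes. None passed the threshold by edgeR, as was the case for all genes (0%), with 14 lower, against 6.44% of all genes, and 0 higher at an unadjusted p below 0.05. DESeq2 called 2 lower, Oas3 and Lgals3bp. Isg15 was at 3.09, 4.03, 2.00, 2.04 and 5.66 CPM in RW and 2.32, 0.888, 2.01, 1.21 and 2.66 CPM after aJ1aJ2, overlapping, with a change of -0.89 (SE 0.37, edgeR adjusted p = 0.392). Oas3 was at 2.91, 1.87, 1.41, 0.487 and 0.827 CPM in RW and 0.283, 0, 0.557, 0.464 and 0.340 CPM after aJ1aJ2, where 1 library had 0 counts, which allows up to 3. Its change was -2.13 (SE 0.59, edgeR adjusted p = 0.204). Only Herc6, Ddx60 and Lgals3bp had every aJ1aJ2 library below every RW library, against 1.91% of all genes. Exons of another gene on the same strand cover 13.7% of the exon bases of Herc6, so its counts are partly uncertain. No cell marker was called. The closest to the threshold was the macrophage gene Mrc1, which was higher after aJ1aJ2 (1.12, edgeR adjusted p = 0.0820). T cell markers had lower values after aJ1aJ2 than in RW, where the libraries spread widely. Their summed level was 2.43 to 177 CPM in RW and 1.43 to 2.83 CPM after aJ1aJ2. Cd3e, part of the T cell receptor complex, was at 0.681 to 17.0 CPM and 0.227 to 0.357 CPM, without overlap (-4.26, edgeR adjusted p = 0.122), Cd3g was at -3.45 (edgeR adjusted p = 0.165) and Cd4 at -4.52 (edgeR adjusted p = 0.195). The part of these cells in the lower values was not tested.

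**Figure D4:**
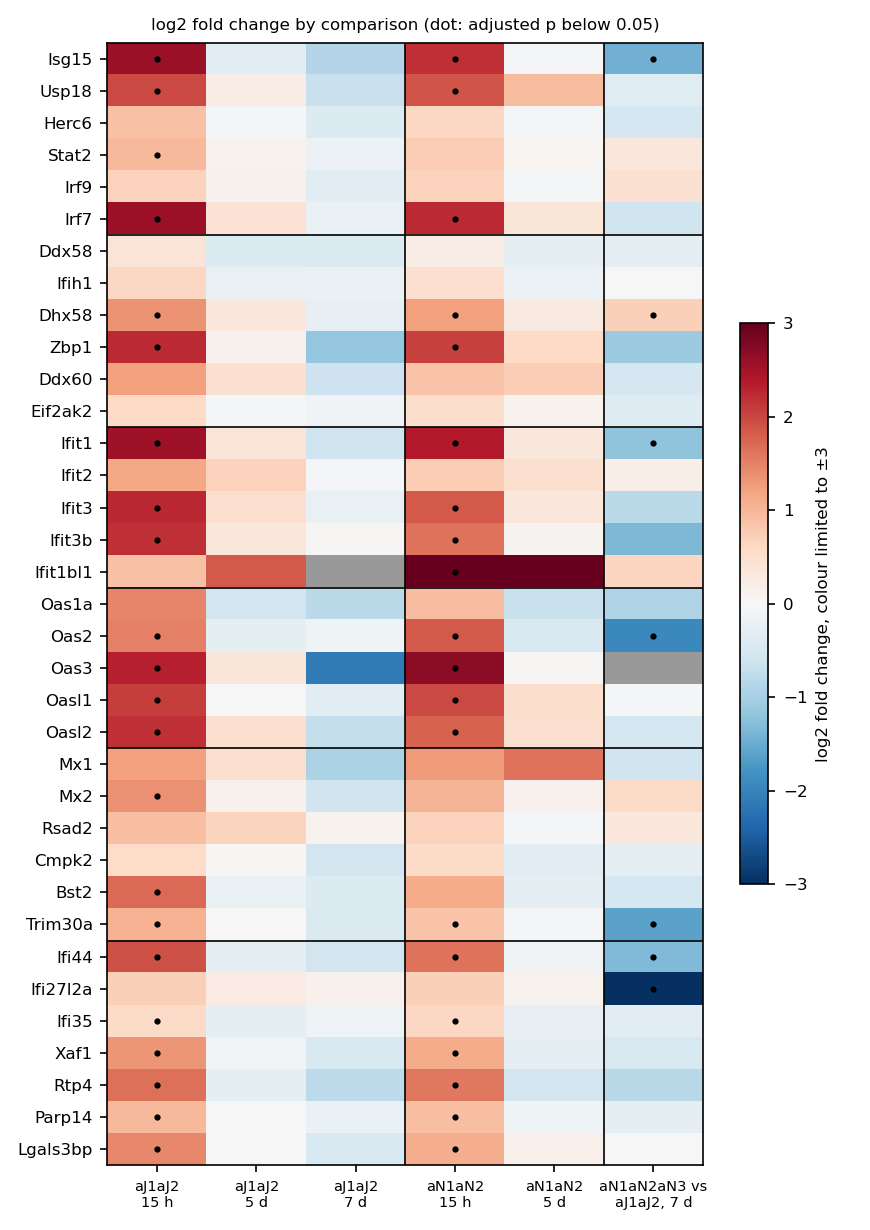
Fitted log2 fold change of each of the 35 genes (rows, grouped by role) in 6 comparisons (columns), with colour limited to ±3 and grey for genes not tested. The first 5 columns are against RW of the same time, and the last is aN1aN2aN3 against aJ1aJ2 at 7 days in the second set. Dots mark adjusted p below 0.05, which the 15-hour columns hold for 22 and 20 genes and the 5-day and first-set 7-day columns for 0.

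The change over time was tested as the difference between each antibody's effect at the later time and at 15 hours. For aN1aN2 the 15-hour effect crosses the 2 processing sets. For aJ1aJ2 at 5 days, 10 of the 35 genes had a lower effect and 0 a higher one, against 0.455% of all 19337 genes called lower. The median difference was -1.25 log2 units. For aN1aN2 at 5 days, 9 were lower and 0 higher, against 1.14% of all genes, with a median of -1.01. For aJ1aJ2 at 7 days, 17 were lower and 0 higher, against 0.216% of 18487 genes, with a median of -1.92 and all 35 values below 0. The effect on Isg15 changed by -2.93 (SE 0.51, edgeR adjusted p = 0.00863) for aJ1aJ2 at 5 days, -2.26 (SE 0.51, edgeR adjusted p = 0.0172) for aN1aN2 at 5 days and -3.49 (SE 0.55, edgeR adjusted p = 0.0139) for aJ1aJ2 at 7 days. Oasl2 differed by -2.93 (SE 0.42, edgeR adjusted p = 0.0117) at 7 days. Bst2 differed by -1.93 (SE 0.34, edgeR adjusted p = 0.00863) for aJ1aJ2 at 5 days and -1.41 (SE 0.33, edgeR adjusted p = 0.0238) for aN1aN2. Cell markers called in these contrasts were Siglech for aJ1aJ2 at 5 days (2.21, edgeR adjusted p = 0.0242), the neutrophil gene S100a9 for aN1aN2 at 5 days (-8.59, edgeR adjusted p = 0.0455) and the macrophage gene Mrc1 for aJ1aJ2 at 7 days (1.32, edgeR adjusted p = 0.0404). The other macrophage markers were not called in that 7-day contrast. They ran from -0.82 (Adgre1) to 0.23 (Csf1r), and all but Csf1r were below 0. Summed neutrophil markers after aN1aN2 were 1.93 to 96.4 CPM at 15 hours and 0.343 to 1.27 CPM at 5 days. The part of these cells in the changes was not tested.

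Isg15 and Bst2 (aJ1aJ2 at 5 days) and Isg15, Oas2, Ifi35 and Rtp4 (aN1aN2 at 5 days) were called under every alternative tried, and no gene was for aJ1aJ2 at 7 days. Leaving out RW replicate 3 at 5 days, the library with the lowest Tg share, raised the count for aJ1aJ2 to 19 and that for aN1aN2 to 16. Without aJ1aJ2 replicate 3 at 5 days they were 8 and 11. The aJ1aJ2 count at 5 days fell to 3, 2 and 3 without 15-hour RW replicates 2, 4 and 5, to 6, 5 and 3 without 15-hour aJ1aJ2 replicates 2, 3 and 5, and to 6 without 15-hour aN1aN2 replicate 2 or 4. It fell to 5, 3 and 6 without 5-day RW replicates 1, 2 and 4, to 3 without 5-day aJ1aJ2 replicate 2, 4 or 5, and to 6 without 5-day aN1aN2 replicate 4. The aN1aN2 count fell to 4 and 5 without 15-hour RW replicates 2 and 4, and to 5 without 15-hour aN1aN2 replicate 2, 5-day RW replicate 2 or 5-day aN1aN2 replicate 5. The 7-day count fell to 3 and 4 without 7-day RW replicates 2 and 5, to 5, 10 and 4 without 7-day aJ1aJ2 replicates 2, 3 and 4, and to 4 and 5 without 15-hour RW replicate 2 and aJ1aJ2 replicate 5. It rose to 27 without 15-hour aJ1aJ2 replicate 4. Irf7, at -2.16, -1.91 and -2.80, was among the calls lost in several of these.

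In the aJ1aJ2 arm, with the second 7-day set left out, the mean CPM was highest at 15 hours for 34 of the 35 genes. The share was 35.2% among the 18292 genes tested in both fits that span times (15 hours with 5 days, and with 7 days). For 12 of the 35 every 15-hour library exceeded every library at 5 days and in the first 7-day set, against 0.940% of those genes. The 5-day libraries of this arm belong to the other processing set. Its 15-hour and 7-day libraries also carry sample IDs of separate number series. Time and sample series cannot be told apart in this arm or in RW. Rsad2 was the exception among these libraries, with 51.1 ± 23.6 CPM (SD, n = 5) at 5 days and 45.3 ± 15.4 CPM (SD, n = 5) at 15 hours, a difference smaller than the spread. In the second 7-day set, left out here, the mean of Ifi27l2a after aJ1aJ2 was above that at 15 hours. In the aN1aN2 arm, whose 15-hour and 5-day libraries belong to the same processing set, the mean was highest at 15 hours for all 35, against 51.4% of the 18292 genes. For 24 genes every 15-hour library exceeded every 5-day library, against 1.87%. In RW, with 3 time points, the mean was highest at 15 hours for 9 genes (25.6% of the 18292), and for 0 of them did the libraries separate (0.169%). RW means at 15 hours, 5 days and 7 days lay within 1.5-fold of each other for 28 of the 35 genes. Those that differed 2-fold or more were Ifit1bl1, Oas3, Mx1 and Rsad2.

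In the second set at 7 days, aN1aN2aN3 was compared with aJ1aJ2, so no value in it is relative to RW. Of 34 genes tested (Oas3 had too few counts), 6 were lower after aN1aN2aN3 (Isg15, Ifit1, Oas2, Trim30a, Ifi44 and Ifi27l2a) and 1 higher (Dhx58). In the background, 10.4% of all genes were lower and 9.19% higher. The median was -0.49, against -0.07 for all genes. Ifi27l2a, with the lowest of these log2 fold changes, was at 394, 234, 375, 291 and 975 CPM after aJ1aJ2 and 112, 42.3, 9.27, 50.9 and 26.7 CPM after aN1aN2aN3. The groups did not overlap, and the log2 fold change was -3.26 (SE 0.65, edgeR adjusted p = 0.00843). Trim30a was at 7.49, 8.67, 9.83, 5.91 and 8.97 CPM after aJ1aJ2 and 3.75, 2.18, 1.32, 3.78 and 2.59 CPM after aN1aN2aN3, likewise separate, with a log2 fold change of -1.61 (SE 0.29, edgeR adjusted p = 0.00415) by edgeR and of -0.78 on log2(FPKM + 0.1).

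Isg15 in that set was at 2.93, 2.92, 5.23, 3.37 and 4.81 CPM after aJ1aJ2 and 1.89, 0.866, 0.708, 2.26 and 1.52 CPM after aN1aN2aN3, separate by a small gap, with a log2 fold change of -1.44 (SE 0.35, edgeR adjusted p = 0.0149). Dhx58 went the other way, at 2.80, 2.60, 2.12, 2.85 and 3.21 CPM and 5.02, 3.57, 4.60, 4.36 and 5.26 CPM, with no overlap and a log2 fold change of 0.72 (SE 0.20, edgeR adjusted p = 0.0299). The Dhx58 call was lost when any 1 of 7 of the 10 libraries was left out. The Ifit1 call was also lost without any 1 of 7 libraries, not all the same ones. Ifit1 was at 14.4, 9.41, 22.6, 10.5 and 18.1 CPM and 4.17, 3.50, 4.79, 8.57 and 12.1 CPM, overlapping, with a log2 fold change of -1.21 (SE 0.36, edgeR adjusted p = 0.0367). Oas2 was at 1.89, 1.81, 1.45, 3.48 and 2.46 CPM after aJ1aJ2 and 0.783, 0.277, 0.129, 1.13 and 0.593 CPM after aN1aN2aN3, separate, with a log2 fold change of -1.94 (SE 0.49, edgeR adjusted p = 0.0182). The count of 7 called genes fell to 4 without replicate 3 of either group. Markers of several cell types were called in the same contrast. Macrophage markers summed to 103 to 269 CPM after aJ1aJ2 and 80.8 to 194 CPM after aN1aN2aN3, with 2 of 6 called lower (Adgre1 at -1.33 and Mrc1 at -1.46). Siglech (-3.46), the B cell gene Ms4a1 (-2.68) and the brown adipocyte gene Cidea (-2.11) were lower. Ms4a1 was scarce, at 0.551 to 2.64 CPM after aJ1aJ2 and 0 to 0.554 CPM after aN1aN2aN3. Cd79b, the other B cell marker tested, went the opposite way (0.99, edgeR adjusted p = 0.0555), at 2.30 to 10.3 CPM and 12.1 to 15.4 CPM. Of 7 thyrocyte markers, Tg (1.31) and Pax8 (0.78) were higher and Slc5a5, the iodide transporter, lower (-1.91), and the 7 summed to 11763 to 24449 CPM after aJ1aJ2 and 27391 to 48038 CPM after aN1aN2aN3. Of 3 endothelial markers, Pecam1 (1.15) and Cdh5 (1.09) were higher and Kdr (-0.99) lower, and the C cell gene Calca was higher (1.06). The part of these cells in the results of this set was not tested.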

How the data were processed

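Gene counts and FPKM (reads scaled to gene length and library size) for 52636 Ensembl genes in 50 thyroid libraries are the authors' deposited tables. The submitters' processing notes name GSNAP and limma; for the counting tool, genome build and annotation, the sources used here give no name. The deposited counts are raw whole numbers, and the deposited FPKM were used for levels between genes and as an alternative. Symbols came from GENCODE M21.

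Tests used R 4.3.3 and edgeR 4.0.16, with TMM scaling, filterByExpr (minimum count 10, minimum total 15) and robust quasi-likelihood fits, 1 per time point or 7-day set, with Benjamini-Hochberg adjustment over all genes tested and a threshold of 0.05. Differences between times were interaction terms. CPM used TMM-scaled library sizes over all 50 libraries. Replicates differed beyond sampling noise (smallest chi-square per degree of freedom 15.6 over 100 pairs), so none was a repeat deposit. Alternatives were DESeq2 1.42.0, limma 3.58.1 (voom, and trend on log2(FPKM + 0.1)), RLE scaling, no count filter, a replicate block, only the groups of the contrast and each library left out. The edgeR test of aJ1aJ2 against RW at 15 hours was checked on simulated data, and the other comparisons and tools were not.

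Values in every library are given for the 2 genes of each of 6 roles with the smallest p after aJ1aJ2 at 15 hours, and for a gene that alone of its role passed, or went against it, in another comparison. Ifit1bl1, Mx1 at 15 hours, Ifi27l2a and Rsad2 were added after their values were seen. At most 4 genes of any other list are named, mostly by smallest p. One of the pathway lists is not reported here. The 35 genes, the lists and the tests were chosen with earlier results of these data known.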

Additional observations from a re-analysis of the deposited data

Results flagged for a closer look

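The difference between the effect at a later time and at 15 hours passed edgeR's threshold for 10 genes with aJ1aJ2 at 5 days, 9 with aN1aN2 at 5 days and 17 with aJ1aJ2 at 7 days. Among the genes given by library, the aJ1aJ2 difference at 5 days was -2.93 for Isg15, -2.16 for Irf7, -1.93 for Bst2, -2.23 for Ifi44 and -1.94 for Rtp4. With aN1aN2 at 5 days it was -2.26 for Isg15, -1.91 for Irf7, -2.68 for Oas3, -1.41 for Bst2 and -2.16 for Rtp4. With aJ1aJ2 at 7 days it was -3.49 for Isg15, -2.80 for Irf7, -1.61 for Dhx58, -3.40 for Zbp1, -3.15 for Ifit1 and -4.48 for Oas3. It was -2.93 for Oasl2, -2.15 for Bst2, -1.50 for Trim30a, -2.49 for Ifi44 and -2.46 for Rtp4 in the same comparison.

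A library far from the other 4 of its group, by Dixon's gap ratio, was found in 10 of 130 groups tested, where chance gives about 5%. In RW at 5 days, Isg15 was highest in replicate 2 at 5.09 CPM, with the next at 3.60 CPM. After aJ1aJ2 at 5 days, replicate 1 was highest for Irf7 (21.2 CPM, next 11.3) and for Zbp1 (4.62 CPM, next 1.60). After aN1aN2 at 5 days, replicate 1 was highest for Isg15 (7.62 CPM, next 3.35), Ifi44 (11.9 CPM, next 6.41) and Rtp4 (11.1 CPM, next 6.17), and replicate 4 for Trim30a (16.6 CPM, next 10.5). After aJ1aJ2 at 7 days, Zbp1 was highest in replicate 5 (2.21 CPM, next 1.07). In the second 7-day set, aJ1aJ2 replicate 5 was highest for Irf7 (16.0 CPM, next 9.41) and replicate 4 lowest for Bst2 (14.2 CPM, next 24.1).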

How the results depend on the processing

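No called gene given by library reversed its direction under any alternative. The 22 genes called after aJ1aJ2 at 15 hours became 11 with a replicate block, 10 with limma-voom and 5 when the fit held RW and aJ1aJ2 libraries alone, while the median log2 fold change of all 35 genes lay between 0.96 and 1.51 over all alternatives. The 20 called after aN1aN2 stayed within 1.5 times under the 6 settings other than leaving out a library, and the median of all 35 lay between 1.02 and 1.20. On log2(FPKM + 0.1), a scale that understates changes of low genes, the 7-day difference of the aJ1aJ2 effect was -1.37 for Oas3 (-4.48 by edgeR), -1.26 for Rtp4 (-2.46) and -2.22 for Zbp1 (-3.40), with the last 2 calls lost. Where edgeR called 0, DESeq2 called 1 gene for aN1aN2 at 5 days and 2 for aJ1aJ2 at 7 days. For the change of the aJ1aJ2 effect by 5 days, the 10 genes became 2 without a count filter, 4 with the replicate block, 5 with limma-voom and 18 with DESeq2. For aN1aN2 the 9 became 14 with DESeq2. For aJ1aJ2 by 7 days the 17 became 0 with the replicate block, 0 with limma-voom, 9 with limma-trend on FPKM and 30 with DESeq2. The cause of these shifts was not tested. Correlations of same-numbered deviations ranged from -0.660 to 0.790 in 8 pairs of groups, and in 0 of them were all above 0.1. Medians were highest for RW with aJ1aJ2 at 5 days (0.61) and RW with aN1aN2 at 15 hours (0.55). Whether the replicate numbers pair the samples is not settled by this check. Leaving out each library in turn gave 9 to 27 genes for aJ1aJ2 and 9 to 23 for aN1aN2 at 15 hours, 4 to 10 for the second 7-day set, 2 to 19 and 4 to 16 for the changes by 5 days with aJ1aJ2 and aN1aN2, and 3 to 27 for that by 7 days. The remaining comparisons gave 0 in every such fit. Depth limits Oas3, with 95 counts over the 5 RW libraries at 15 hours, and Ifit1bl1, with 39.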

Other observations

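Libraries of 1 group often ranked alike for many of the 35 genes. RW replicate 1 at 15 hours was the highest of its group for 20 genes and replicate 2 the lowest for 19. After aJ1aJ2 at 15 hours, replicates 5 and 2 were highest for 18 and 14 genes. RW replicate 3 at 5 days, with the lowest thyroglobulin share, was lowest for 27 genes, and aJ1aJ2 replicate 2 at 7 days was lowest for 27. Mx1 was at 14.8 CPM in aN1aN2 replicate 1 at 5 days and at 0.916 to 2.11 CPM in the other 4 libraries of that group, and that replicate was the highest of its group for 21 genes. Oas3 held 17 counts over the 5 aJ1aJ2 libraries and 15 over the 5 aN1aN2aN3 libraries of the second 7-day set. It held 179 over the RW libraries of the first. The 2 sets differ in their sample ID series and were not compared by a test.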
